A study of Homo sapiens with 18 samples.

Results

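The 6 negative regulators of p53 described here over 6 comparisons of U2OS cells are MDM2, MDM4, PPM1D, CCNG1, RCHY1 and USP7. They were chosen by gene name as regulators of p53, with no threshold on a measured value, and all 6 were found among the 26702 genes of the deposited tables and among the 22738 genes that every table holds. U2OS is an osteosarcoma line that keeps a functional p53, and polyadenylated RNA was sequenced in 18 samples, 3 in each of 6 groups. Each culture was given siControl, siANKRA2 or siRFXANK by transfection and then received Nutlin-3a at 10 µM or its solvent DMSO for 24 h. Each knockdown rests on an siRNA that the labels do not describe further, the siRFXANK samples were registered separately from the others with no siControl samples beside them, and their labels call the cells wild-type epithelial cells from bone. In any comparison of siRFXANK with siControl or siANKRA2, the siRNA and the set of samples therefore cannot be told apart.

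p53 is a transcription factor that is made all the time and destroyed nearly as fast, and it is kept low by proteins of which several are encoded by its own target genes. MDM2 is the ubiquitin ligase that marks p53 for degradation, its relative MDM4 binds and silences the p53 activation domain, and Nutlin-3a fills the pocket of MDM2 in which p53 sits, so that p53 accumulates without DNA damage. PPM1D (WIP1) is a phosphatase that removes the activating phosphates from p53 and from the kinases above it, CCNG1 (cyclin G1) brings the phosphatase PP2A to MDM2, RCHY1 (PIRH2) is another ubiquitin ligase for p53, and USP7 (HAUSP) takes ubiquitin off both MDM2 and p53. The siRNAs target ANKRA2 and RFXANK, a pair of related proteins with ankyrin repeats, the latter a subunit of RFX transcription factor complexes.

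On GRCh38 with the GENCODE 29 annotation, MDM2 is found at chr12:68808176-68850686, MDM4 at chr1:204516379-204558120, PPM1D at chr17:60600183-60666280 and CCNG1 at chr5:163437569-163446151, all read from the plus strand. The minus strand holds RCHY1 at chr4:75479037-75514764 and USP7 at chr16:8892094-8964514. Exons of RCHY1 share 547 bases with exons of THAP6 on the opposite strand, 8.33% of its exonic length. Exons of MDM2 share 785 bases with the antisense gene AC025423.4, 439 bases with a processed pseudogene on the same strand, AC025423.2, and 133 bases with CPM on the opposite strand. Of the stretches of 31 bases in each gene's longest transcript, between 0.329% for CCNG1 and 21.8% for MDM2 were shared with at least 1 other gene. The use of strand in counting is not given in the sources used here, so reads that lie in these shared bases cannot be assigned to RCHY1 or MDM2 alone.

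The response of MDM2 to p53 is known from its internal promoter, which lies in the first intron and holds a pair of p53 sites, and this promoter is shown beside the first one because MDM2 moved farthest of the 6 genes. Both stretches come from RefSeq promoters on GRCh38.p14 and are on the plus strand. The internal one, chr12:68808902-68809001, lies between exon 1 of the longest MDM2 transcript, which ends at 68808491, and its exon 2, which starts at 68809208, and it ends just before the first exon of a transcript that starts in this intron. The other one, chr12:68808072-68808171, ends just before the upstream RefSeq start. Capitals mark matches to the p53 consensus.
MDM2 internal promoter: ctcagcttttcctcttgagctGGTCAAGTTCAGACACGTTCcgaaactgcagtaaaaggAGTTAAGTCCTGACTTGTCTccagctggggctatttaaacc
MDM2 first promoter: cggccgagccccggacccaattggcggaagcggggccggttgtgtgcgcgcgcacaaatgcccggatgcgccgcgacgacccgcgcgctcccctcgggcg

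The p53 consensus, a pair of half-sites with no spacer that reads the same on both strands, was searched in windows from 250 bases before to 50 after each RefSeq start. With at most 3 mismatches in its 20 letters, it was found in 2 of the 15 windows of the 6 genes, both at the internal starts of MDM2, and in 5.20% of 35116 windows of all genes. The matches begin 94 and 56 bases upstream of the start at 68809017, with 2 and 3 mismatches. With at most 4 mismatches it was found in 5 of the 15 windows and in 26.0% of all windows. The letters GTTGCC, an arm of the X-box bound by RFX factors, were searched on both strands and were found in 2 of the 15 windows, both of RCHY1 and at the same place, against 12.2% of all windows. That stretch, chr4:75514523-75514552, is printed on the minus strand because RCHY1 was higher after both siRNAs in both treatments on the deposited scale, and its capitals are GTTGCC read on the other strand. It lies in an exon of the longest RCHY1 transcript, which starts farther upstream.
RCHY1 promoter: tgggggaaaacaGGCAACctaagagttatt
A match is a description of the letters and says nothing of binding in these cells.

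The files hold no value per library, so the level of each gene in each group was recovered from the deposited log2 fold changes and their standard errors, as a mean normalized count with its 95% interval for 3 samples. Differences between groups follow the deposited fold changes exactly, while the height of the scale is approximate. The deposited mean of each of the 6 genes is between 0.819 and 1.1 times the mean of its 6 recovered group means. The coefficient of variation between samples of a group, as the recovered dispersion gives it, was between 2.77% for PPM1D and 5.84% for MDM4. Depth is unknown, and RNA per cell and the number of cells of a kind cannot be told apart in such bulk samples.

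ANKRA2 and RFXANK check the labels. After siANKRA2, ANKRA2 was lower, with log2 values of -1.81 (SE 0.182) in DMSO and -2.58 (SE 0.118) in Nutlin-3a, and after siRFXANK, RFXANK was lower, at -2.96 (SE 0.102) and -3.16 (SE 0.103). The direction of these tables is read from these genes and is no result. RFXANK was also lower after siANKRA2, with log2 values of -0.37 (SE 0.0713) in DMSO and -0.44 (SE 0.0699) in Nutlin-3a, but at 0.12 and -0.04 when centred on the reference gene ACTR10, where neither passed. ANKRA2 had a deposited mean of 31568 although its highest recovered group mean was 516, so the mean of the deposited fit covers more than these 6 groups. Markers of mesenchymal cells and osteoblasts summed to between 160313 and 199687 normalized counts in the 6 groups over 7 genes, mostly from VIM, COL1A1 and SPARC. The others were lower, with CDH2 between 5243 and 10937, RUNX2 between 376 and 579, ALPL between 32.5 and 246 and COL1A2 between 24.5 and 76.5. The epithelial marker CLDN4, at 354 to 1139, was above ALPL and COL1A2 in every group and above RUNX2 in some. KRT14, at 143 to 288, and EPCAM, at 93.8 to 180, were above COL1A2 in every group and above ALPL in some. Epithelial markers summed to between 633 and 1559 over 6 genes, and PTPRC, the leucocyte marker with a level, to between 1.36 and 9.30, while TWIST1 and CD3E were not analysed here.

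The first question was how the 6 genes respond to Nutlin-3a in siControl cells. MDM2, PPM1D, CCNG1 and MDM4 rose, USP7 fell, and RCHY1 did not pass the test. In all, 5 of the 6 genes were past an adjusted p of 0.05, while 43.2% of the 25909 genes tested were past it in either direction. Past the threshold and higher were 4 of the 6 genes, against 21.9% of the 25909 genes tested. The median log2 value of the 6 genes was 0.63, beside 0.02 over all genes tested.

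MDM2 had 3294 normalized counts in DMSO and 34330.3 in Nutlin-3a. This is a 10.4-fold rise with a 95% interval from 9.76 to 11.1, a log2 value of 3.38 (SE 0.0484) that lies 69.8 standard errors from 0. MDM2 went from the middle of the 6 genes to close to the top: per kilobase of exon it had 248 normalized counts in DMSO, below CCNG1 with 1548, USP7 with 1018 and PPM1D with 813, and 2584 in Nutlin-3a, below CCNG1 alone with 2972. MDM4 had 76.7 per kilobase of exon in DMSO and RCHY1 had 83.5, so these 2 genes were the lowest.

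PPM1D rose from 4101 to 9503 normalized counts, 2.32-fold, a log2 value of 1.21 (SE 0.0333, adjusted p = 3.52e-287). CCNG1 rose from 4794 to 9201, 1.92-fold, a log2 value of 0.94 (SE 0.0400, adjusted p = 8.51e-121). These 2 genes and MDM2 had intervals in Nutlin-3a that lay far above those in DMSO. MDM4 rose from 844 to 1059, only 1.26-fold, a log2 value of 0.33 (SE 0.0685, adjusted p = 7.36e-06). USP7 fell from 8110.1 to 6701, a log2 value of -0.28 (SE 0.0456, adjusted p = 8.69e-09). RCHY1 had 548 in DMSO and 526 in Nutlin-3a, and its interval on the log2 scale ran from -0.20 to 0.08 (adjusted p = 0.537).

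**Figure D1:**
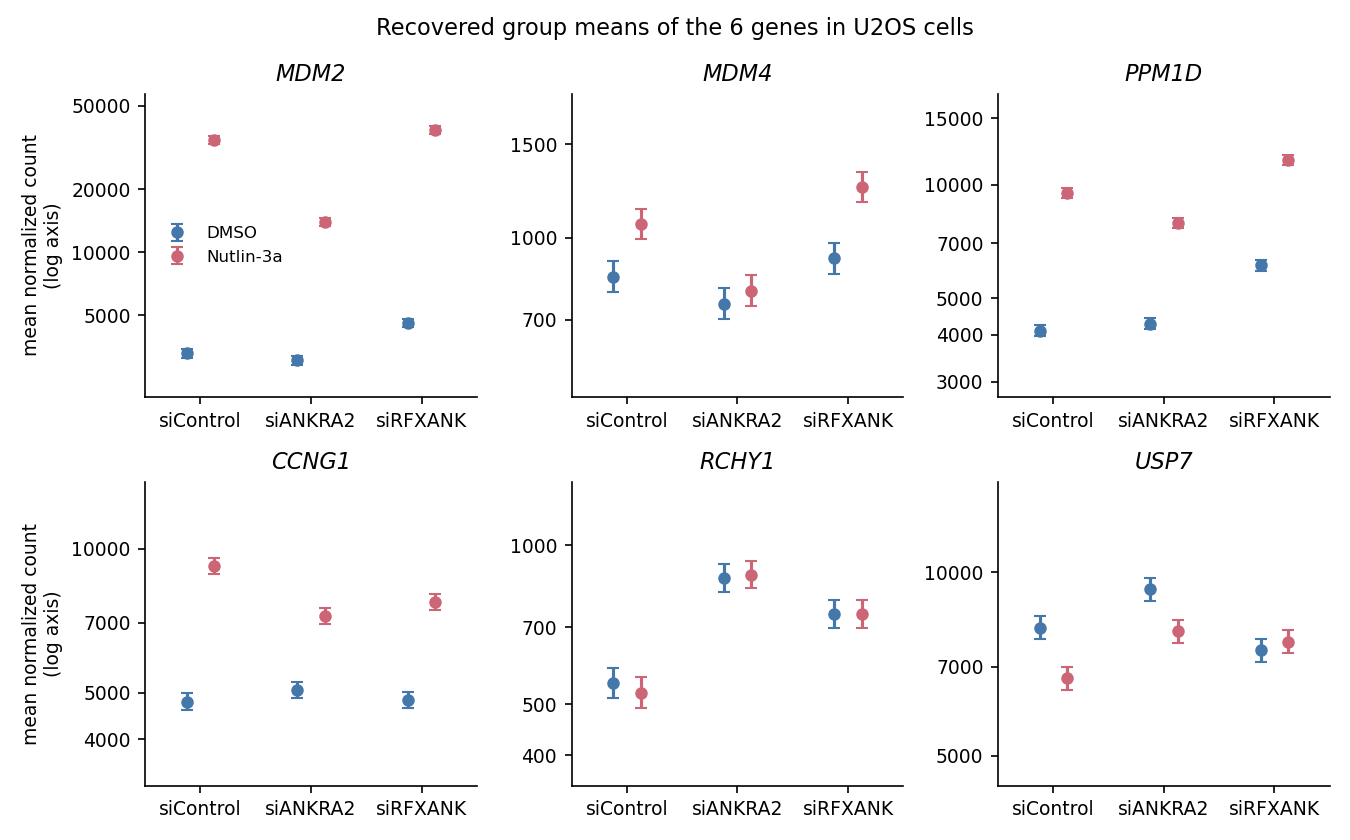
Recovered mean normalized counts (log axis, scale differs between panels) of the 6 genes in cells given siControl, siANKRA2 or siRFXANK, in DMSO (blue) and Nutlin-3a (red), with 3 samples a group and 95% intervals as bars. MDM2 in Nutlin-3a stands at 34330.3 in siControl cells, 13965 in siANKRA2 cells and 38089 in siRFXANK cells, and RCHY1 is lowest in both siControl groups.

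The second question was how the genes differ between siANKRA2 and siControl cells. In DMSO, RCHY1 and USP7 were higher and MDM4 was lower after siANKRA2, and the other 3 genes did not pass the test. These are 3 of 6 genes, against 48.8% of 26702 genes tested. In Nutlin-3a, all 6 genes passed, against 50.1% of 26702 genes: MDM2, MDM4, CCNG1 and PPM1D were lower and RCHY1 and USP7 higher. The median log2 value of the 6 genes was 0.07 in DMSO and -0.30 in Nutlin-3a, beside 0.01 and -0.01 over all genes tested.

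MDM2 had 3056 normalized counts in DMSO after siANKRA2, a log2 value of -0.11 (SE 0.0506) against siControl with an adjusted p of 0.0654. With a minimum mean of 10 before adjustment, this adjusted p was 0.0482 and passed. In Nutlin-3a, MDM2 reached 13965 after siANKRA2, 40.7% of its level in siControl cells, a log2 value of -1.30 (SE 0.0468, adjusted p = 8.74e-167). The low level of MDM2 in siANKRA2 cells was thus seen with Nutlin-3a, where its recovered interval ran from 13347 to 14612, well below the 32831 to 35899 of siControl cells.

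The other genes that Nutlin-3a raised were also lower in siANKRA2 cells in Nutlin-3a on the scale of the deposited fit, but none of them passed as lower when centred on ACTR10. MDM4 had 751 in DMSO and 795 in Nutlin-3a after siANKRA2, log2 values of -0.17 (SE 0.0706, adjusted p = 0.0356) and -0.41 (SE 0.0692, adjusted p = 8.93e-09) against siControl. PPM1D had 4276 and 7932, log2 values of 0.06 (SE 0.0348, adjusted p = 0.149) and -0.26 (SE 0.0322, adjusted p = 3.24e-15). CCNG1 had 5064 and 7246, log2 values of 0.08 (SE 0.0408, adjusted p = 0.0992) and -0.34 (SE 0.0394, adjusted p = 1.43e-17).

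RCHY1 and USP7 went the other way, and did so in both treatments. RCHY1 rose after siANKRA2 to 867 in DMSO, 1.58-fold, and to 879 in Nutlin-3a, 1.67-fold, log2 values of 0.66 (SE 0.0651, adjusted p = 2.08e-23) and 0.74 (SE 0.0656, adjusted p = 1.15e-28). USP7 rose to 9384 and 8005, log2 values of 0.21 (SE 0.0453, adjusted p = 1.12e-05) and 0.26 (SE 0.0457, adjusted p = 7.51e-08). These directions hold on the scale of the deposited fit. Centring on the median gene changed no call of the 6 genes. The reference gene GAPDH was at -0.07 (SE 0.0451) in DMSO and -0.12 (SE 0.0451) in Nutlin-3a after siANKRA2, and was not used for centring. ACTR10, the reference gene used here for centring, was itself lower after siANKRA2 by -0.49 in DMSO and -0.40 in Nutlin-3a. Why it was lower was not tested, and centring on it changes the calls. In DMSO all 6 genes are then higher after siANKRA2, with MDM2 at 0.39, MDM4 at 0.32, PPM1D at 0.55 and CCNG1 at 0.57. The share of all genes on that scale is not given. In Nutlin-3a MDM2 stays lower (-0.90), MDM4 (-0.02) and CCNG1 (0.05) no longer pass, and PPM1D (0.14) is higher. RCHY1 and USP7 stay higher in both treatments.

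**Figure D2:**
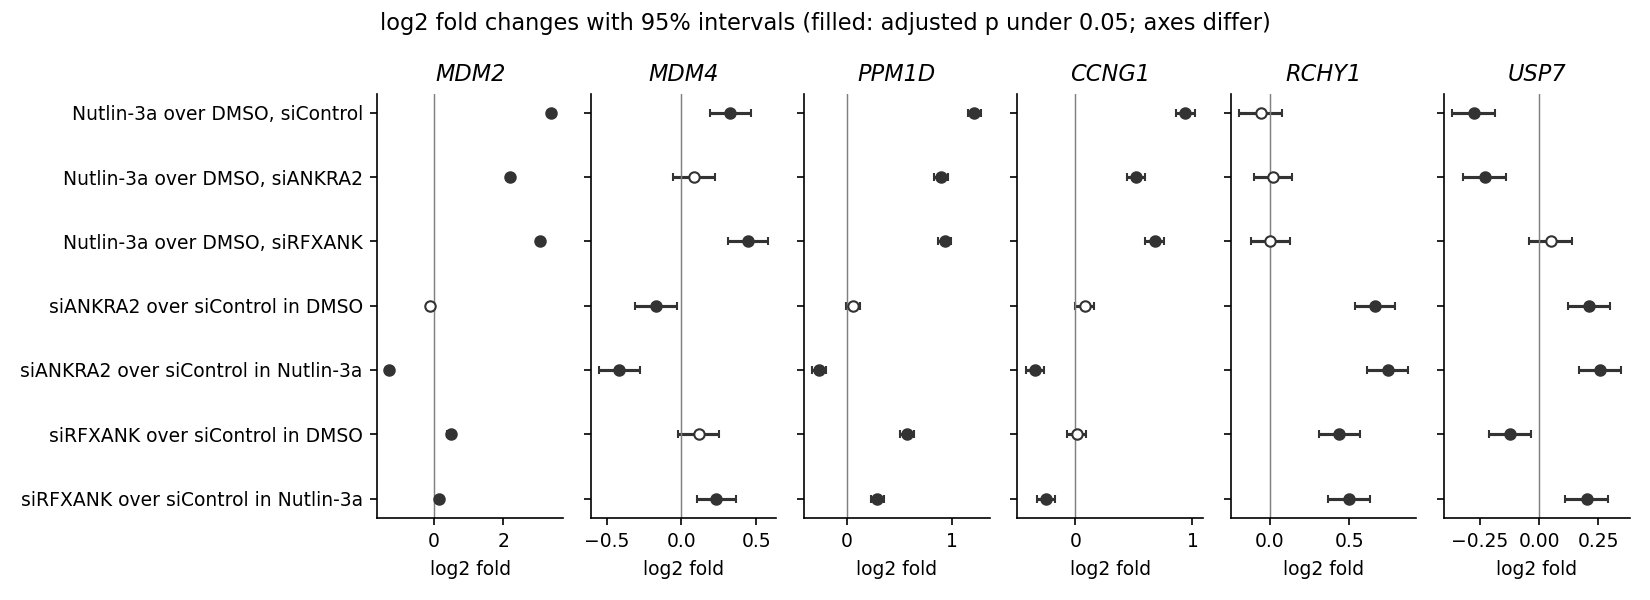
log2 fold changes (horizontal axis, range differs between panels) of the 6 genes in 7 comparisons, with 95% intervals as bars, where filled points have an adjusted p under 0.05. MDM2 is at 3.38, 2.19 and 3.05 for Nutlin-3a over DMSO in siControl, siANKRA2 and siRFXANK cells, and RCHY1 is near 0 in these 3 and above 0 in the 4 comparisons of a knockdown with siControl, where centring on ACTR10 leaves it at 0.01 for siRFXANK in DMSO.

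The same comparisons were made for siRFXANK, where the separate registration of its samples applies to every value. In DMSO, PPM1D, MDM2 and RCHY1 were higher and USP7 was lower than in siControl cells, 4 of 6 genes, against 42.1% of 25909 genes tested. In Nutlin-3a, all 6 genes passed, against 39.4% of 25116 genes: CCNG1 was lower and the other 5 were higher. The median log2 value of the 6 genes was 0.28 in DMSO and 0.22 in Nutlin-3a, beside 0.01 and 0.02 over all genes tested.

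MDM2 had 4605 normalized counts in DMSO and 38089 in Nutlin-3a after siRFXANK, log2 values of 0.48 (SE 0.0498, adjusted p = 3.68e-21) and 0.15 (SE 0.0465, adjusted p = 0.00421) against siControl. PPM1D had 6110.5 and 11636, log2 values of 0.58 (SE 0.0339, adjusted p = 1.44e-62) and 0.29 (SE 0.0317, adjusted p = 4.72e-19). Both genes were higher in each treatment on the deposited scale. RCHY1 had 742 and 743, log2 values of 0.44 (SE 0.0658, adjusted p = 2.26e-10) and 0.50 (SE 0.0666, adjusted p = 6.85e-13). On the deposited scale it was thus higher than in siControl cells whether or not Nutlin-3a was given. Centred on ACTR10, its value in DMSO no longer passes.

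MDM4 had 914 in DMSO, a log2 value of 0.11 (SE 0.0692, adjusted p = 0.186), and 1245 in Nutlin-3a, a log2 value of 0.23 (SE 0.0669, adjusted p = 0.00174). CCNG1 had 4837 in DMSO, a log2 value of 0.01 (SE 0.0408, adjusted p = 0.845), and 7737 in Nutlin-3a, a log2 value of -0.25 (SE 0.0393, adjusted p = 1.48e-09). USP7 had 7448 in DMSO, a log2 value of -0.12 (SE 0.0454, adjusted p = 0.0183), and 7701 in Nutlin-3a, a log2 value of 0.20 (SE 0.0457, adjusted p = 5.21e-05). USP7 was thus the gene whose difference from siControl changed sign between the treatments with both values past the test. The reference genes went opposite ways after siRFXANK, and why was not tested. ACTR10 was higher, by 0.43 in DMSO and 0.24 in Nutlin-3a, while GAPDH was lower, at -0.15 (SE 0.0451) and -0.33 (SE 0.0451). Centred on ACTR10, MDM4 (-0.32) and CCNG1 (-0.42) are lower in DMSO, and MDM2 (0.05) and RCHY1 (0.01) no longer pass there. In Nutlin-3a, this centring turns MDM2 (-0.09), MDM4 (-0.01) and USP7 (-0.04) negative, and PPM1D (0.05) no longer passes.

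The last question was whether the response to Nutlin-3a itself differs between cells given different siRNAs, which was tested as a difference of log2 fold changes, with the response in siRFXANK cells summed from 3 tables. Responses of MDM2, CCNG1 and PPM1D were smaller in both knockdowns than in siControl cells. Those after siRFXANK no longer passed as different when centred on ACTR10. Responses of MDM2 and CCNG1 were also smaller in siANKRA2 than in siRFXANK cells. In siANKRA2 cells 4 of 6 genes responded to Nutlin-3a, against 32.4% of 22738 genes tested, and in siRFXANK cells 4 of 6, against 45.3% of 25116. The difference from the siControl response passed the test in 3 of 6 genes for siANKRA2, against 24.0% of 22738 genes, and in 4 of 6 for siRFXANK, against 21.2% of 25116.

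MDM2 rose 4.57-fold in siANKRA2 cells, with an interval from 4.28 to 4.88, and 8.27-fold in siRFXANK cells, with an interval from 7.75 to 8.83. Its response was smaller than in siControl cells by a log2 difference of -1.19 (SE 0.0690, adjusted p = 6.00e-64) for siANKRA2 and -0.33 (SE 0.0681, adjusted p = 1.99e-05) for siRFXANK. The siANKRA2 and siRFXANK responses share no group of samples, and their samples were registered separately. They differed by -0.86 (SE 0.0685, adjusted p = 1.41e-33). MDM2 responded in every background, and least in siANKRA2 cells.

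CCNG1 rose 1.43-fold in siANKRA2 cells and 1.6-fold in siRFXANK cells. Its response differed from that in siControl cells by log2 differences of -0.42 (SE 0.0567, adjusted p = 2.47e-12) and -0.26 (SE 0.0566, adjusted p = 6.09e-05). PPM1D rose 1.86-fold and 1.90-fold, with differences of -0.32 (SE 0.0474, adjusted p = 3.12e-10) and -0.28 (SE 0.0464, adjusted p = 4.49e-08). Between the knockdowns, the CCNG1 responses differed by -0.16 (SE 0.0569, adjusted p = 0.0176), while the interval for PPM1D ran from -0.13 to 0.05 (adjusted p = 0.604). Centred on ACTR10, the PPM1D difference is -0.32 and passes.

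Responses of MDM4 and USP7 differed between the knockdowns, where the siRNA and the set of samples cannot be told apart. The log2 response of MDM4 was 0.08 (SE 0.0712, adjusted p = 0.429) in siANKRA2 cells and 0.45 (SE 0.0675, adjusted p = 2.31e-10) in siRFXANK cells. These responses differed by -0.36 (SE 0.0982, adjusted p = 0.00114), whereas the difference of siANKRA2 from siControl was -0.25 (SE 0.0988) with an adjusted p of 0.0536 and that of siRFXANK 0.12 (SE 0.0962) with an adjusted p of 0.456. The log2 response of USP7 was -0.23 (SE 0.0453, adjusted p = 3.37e-06) in siANKRA2 cells and 0.05 (SE 0.0455, adjusted p = 0.426) in siRFXANK cells. USP7 responses differed by 0.32 (SE 0.0644, adjusted p = 1.16e-05) between siRFXANK and siControl cells and by -0.28 (SE 0.0643, adjusted p = 0.000111) between siANKRA2 and siRFXANK cells.

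RCHY1 did not respond past the test in any background on the deposited scale, with log2 values of 0.02 (SE 0.0613, adjusted p = 0.860) in siANKRA2 and 0.00 (SE 0.0632, adjusted p = 0.990) in siRFXANK cells. The intervals of its response differences against siControl ran from -0.10 to 0.26 for siANKRA2 and from -0.12 to 0.24 for siRFXANK. The difference between the knockdown responses passed the test in 4 of 6 genes, MDM2, MDM4, CCNG1 and USP7, all smaller or lower for siANKRA2, against 32.4% of 22738 genes. Centred on ACTR10, the differences between siRFXANK and siControl no longer passed for MDM2 (-0.14), PPM1D (-0.09) and CCNG1 (-0.07), while those between siANKRA2 and siControl kept their calls for MDM2, PPM1D and CCNG1. Calls gained by this centring are the response of RCHY1 (0.16) and USP7 (0.21) in siRFXANK cells, the differences of MDM4 (0.31) and RCHY1 (0.25) between siRFXANK and siControl and of MDM4 (-0.34) between siANKRA2 and siControl, and the difference of RCHY1 (-0.27) between the knockdowns.

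The 4 genes that rose in siControl cells were set beside a list of 23 other established p53 targets, such as CDKN1A and GDF15, of which SPATA18 was not analysed here. The other 22 all rose in siControl cells, against 21.9% of all genes, with a median log2 value of 1.98, beside 0.02 over all genes tested. Their response differed from that in siControl cells in 21 of 22 for siANKRA2 and 18 of 22 for siRFXANK, against 24.0% and 21.2% of all genes. It was lower in 21 and in 17, against 12.5% and 9.64%. Centred on ACTR10, it was lower in 21 for siANKRA2, and lower in 10 and higher in 3 for siRFXANK. No share of all genes is given on that scale. On the deposited scale in DMSO, 14 of the 22 were already higher and 4 lower after siANKRA2, against 24.3% and 24.5% of all genes. After siRFXANK, 16 were higher and 3 lower, against 20.9% and 21.2%. Centred on ACTR10, these counts are 19 and 0, and 8 and 9. In Nutlin-3a after siANKRA2, 8 were higher and 14 lower on the deposited scale, against 24.6% and 25.5%. CDKN1A had 23233 after siANKRA2 against 5633 in siControl cells in DMSO, and 62129 against 54185 in Nutlin-3a. The log2 response in siANKRA2 cells was between 0.251 of the siControl one for MDM4 and 0.735 for PPM1D, with a median of 0.599 over the 4 genes and 0.553 over the 22 targets. In siRFXANK cells it was between 0.720 for CCNG1 and 1.36 for MDM4, with medians of 0.834 and 0.827. MDM2 kept 0.648 of its log2 response in siANKRA2 cells and 0.901 in siRFXANK cells. These ratios are descriptions on the deposited scale and share the siControl samples. The 4 genes were taken because they rose in siControl cells, the response each ratio is divided by, which favours ratios under 1. For MDM4, the difference between siANKRA2 and siControl did not pass (adjusted p = 0.0536), and centring on ACTR10 turns its response in siANKRA2 cells negative.

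**Figure D3:**
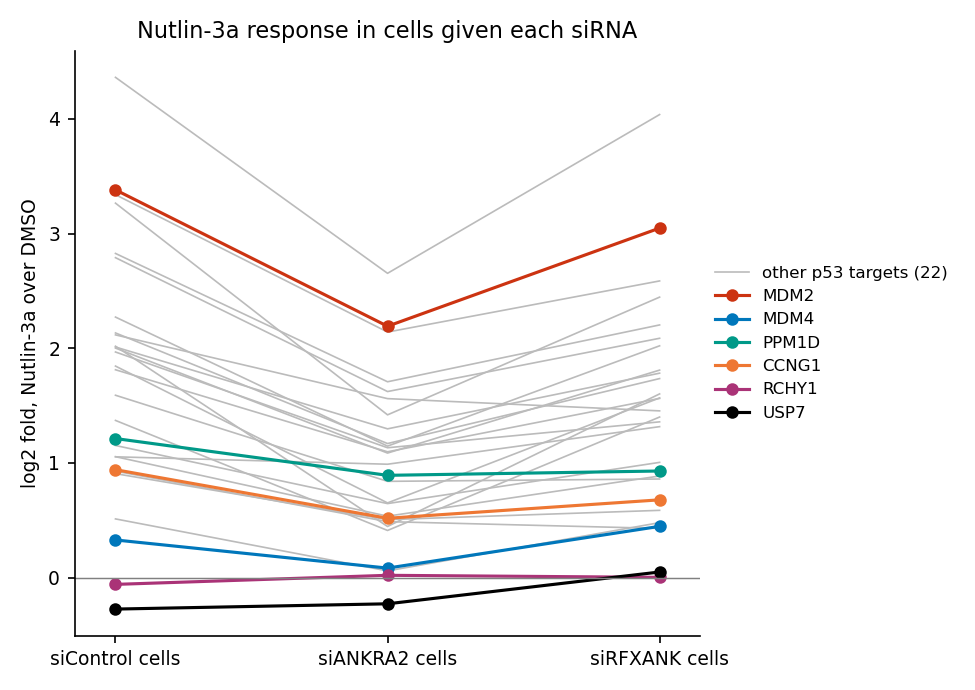
log2 fold change of Nutlin-3a over DMSO (vertical axis) in siControl, siANKRA2 and siRFXANK cells, for the 6 genes in colour and 22 other p53 targets in grey. MDM2 goes from 3.38 to 2.19 in siANKRA2 cells and 3.05 in siRFXANK cells, within the range of the targets, while RCHY1 stays near 0.

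The order of the levels over the 6 groups differed between the genes, read on the deposited scale with intervals that are not adjusted for the number of genes. For MDM2 each of the 5 pairs of neighbours in this order had an interval that excluded 0, from siANKRA2 in DMSO at the bottom over siControl and siRFXANK in DMSO to siANKRA2, siControl and siRFXANK in Nutlin-3a. The lowest of these steps had the adjusted p of 0.0654 given above, and centring on ACTR10 changes the sign of this step and of the highest one. PPM1D had the order siControl, siANKRA2, siRFXANK in DMSO and then siANKRA2, siControl, siRFXANK in Nutlin-3a, and 4 of 5 pairs of neighbours stood apart, all but siControl and siANKRA2 in DMSO. For CCNG1 it was 3 of 5, since the 3 DMSO groups did not stand apart from each other.

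For MDM4, RCHY1 and USP7 it was 2 of 5 each. The MDM4 levels of siANKRA2 in DMSO, siANKRA2 in Nutlin-3a, siControl in DMSO and siRFXANK in DMSO ran on without a gap, and siControl and then siRFXANK in Nutlin-3a stood above them. RCHY1 levels fell into 3 steps, siControl, siRFXANK and siANKRA2, with no gap between treatments inside a step, but the step from siControl to siRFXANK in DMSO is 0.01 when centred on ACTR10. USP7 was lowest in siControl cells with Nutlin-3a and highest in siANKRA2 cells with DMSO, and its other 4 groups had no gap between neighbours.

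Genes with a like pattern over the 6 groups were ranked by the root mean square of the log2 differences, each gene centred on its own mean, among 13103 genes with a mean of at least 100. Nearest to MDM2 were PLXNB3 (0.205), TP53INP1 (0.242) and GRIN2C (0.247), and nearest to MDM4 were SENP6 (0.0339), MYO9B (0.0445) and IDS (0.0468). Nearest to PPM1D were FAM98C (0.0574), AC093677.1 (0.0729) and RPL23AP82 (0.0806), and nearest to CCNG1 were S100A11 (0.0534), AK1 (0.0576) and CAPN1 (0.0650). For RCHY1 they were ANKRD39 (0.0392), ADRM1 (0.0559) and KRBOX4 (0.0567), and for USP7 ALDOAP2 (0.0386), EXOG (0.0414) and PFKFB3 (0.0445). Among the 6 genes themselves, RCHY1 and USP7 were nearest to each other (0.233), and MDM2 and USP7 farthest apart (1.62).

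Other regulators of p53 were taken from a list of 40 genes, of which 39 were tested and CDKN2A was not analysed here. In siControl cells Nutlin-3a raised 13 and lowered 16 of 39, against 21.9% and 21.2% of all genes, with a median log2 value of -0.08, beside 0.02 over all genes tested. Of the 7 kinases in the list, 2 rose, HIPK2 by 0.55 (SE 0.132) and CSNK1A1 by 0.14 (SE 0.0478), and 3 fell. The latter, CHEK1 at -1.77 (SE 0.0545), AURKA at -1.73 (SE 0.0413) and CHEK2 at -1.29 (SE 0.0705), were the lowest values of the list. The deubiquitinase USP2 rose by 1.99 (SE 0.451), with a deposited mean of 13.5 normalized counts.

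Ubiquitin ligases for p53 are the group that RCHY1 belongs to by function. After siANKRA2 in DMSO, 3 of 14 were higher and 8 lower, against 24.3% and 24.5% of all genes, with a median log2 value of -0.24, beside 0.01 over all genes tested, and with TRIM24 at -1.40 (SE 0.0764). After siRFXANK in DMSO, 1 was higher and 10 lower, against 20.9% and 21.2%, with a median of -0.15, beside 0.01, and with HUWE1 at -0.72 (SE 0.162). RCHY1 was higher in both comparisons. Of 7 deubiquitinases, the group of USP7, 4 were higher and 1 lower after siANKRA2, and 3 were higher and 2 lower after siRFXANK. Of 7 kinases, 1 was higher and 4 lower after siANKRA2, and 6 were lower after siRFXANK, led by HIPK2 at -1.86 (SE 0.137) and ATM at -1.24 (SE 0.109). With values centred on ACTR10, the counts after siANKRA2 turn to 8 higher and 1 lower for ligases, 7 higher and 0 lower for deubiquitinases and 4 higher and 1 lower for kinases. Those after siRFXANK become 1 higher and 13 lower for ligases, 1 higher and 6 lower for deubiquitinases and 0 higher and 7 lower for kinases. This centring moves all genes together, since ACTR10 itself was at -0.49 after siANKRA2 and 0.43 after siRFXANK in DMSO. The share of all genes on that scale is not given.

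**Figure D4:**
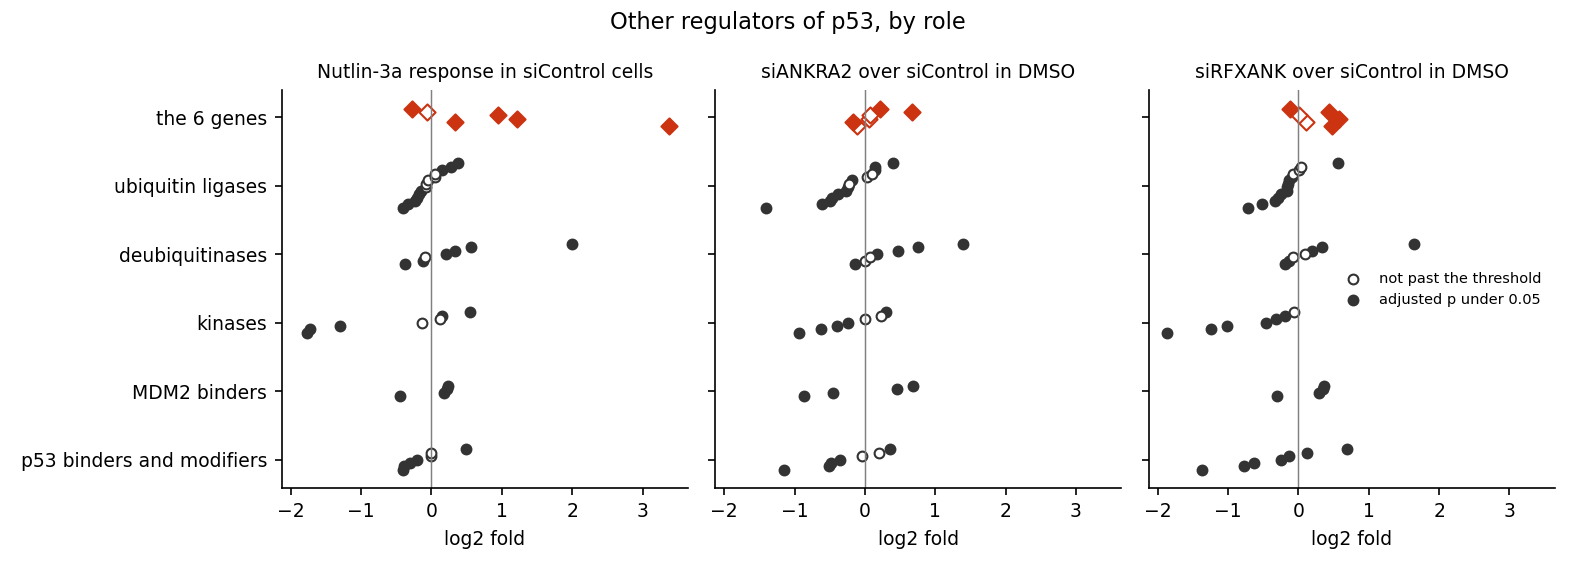
log2 fold changes (horizontal axis) of 39 other regulators of p53 by role, in circles, and of the 6 genes, in red diamonds, for Nutlin-3a over DMSO in siControl cells and for each knockdown over siControl in DMSO, where filled marks have an adjusted p under 0.05. MDM2 at 3.38 lies beyond every other regulator in the left panel, and kinases reach down to -1.77 there and to -1.86 in the right panel; centring on ACTR10 would move all marks of a panel together.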

How the data were processed

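Per the labels, libraries were made from polyadenylated RNA, and the submitters' processing notes name bcl2fastq 2.20.0.422, Trimmomatic 0.39, cutadapt 2.10, featureCounts 1.6.5, DESeq2 1.20.0 and the build hg38. The aligner, the annotation and the use of strand are not given in the sources used here. The authors deposited 6 tables of DESeq2 comparisons from 1 joint fit, with a signal per gene (the mean normalized count over all samples of the fit), a log2 fold change, its standard error on the log2 scale, a Wald statistic and a p-value with its adjusted value. These are the authors' own comparisons. The tables hold no value per library, so no model of counts could be refitted, and the 18 samples are seen through group differences only. Nothing says whether the 3 samples of a group came from separate cultures, so p-values may measure technical spread.

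Each log2 value was divided by its standard error, and the two-sided normal (Wald) p-values of all genes with a value were adjusted together after Benjamini and Hochberg, with 0.05 as the threshold. The response in siRFXANK cells was summed from 3 tables, and response differences were taken between tables, with standard errors from the summed variances. Group means were recovered by least squares with 3 samples a group. Python 3.11.15, pandas 2.3.3 and scipy 1.17.1 were used, and the steps were tested on simulated data. The named genes are the 6 members, the 3 genes most like each, and the genes with the largest change in lists of regulators, paralogues and targets. Members were proposed by name and function, and members and lists were chosen with earlier results of these data known. Alternatives were a threshold of 0.01, minimum means of 10 and 100, a minimum log2 of 1, centring on the median gene or on ACTR10, and the deposited adjusted p-values.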

Additional observations from a re-analysis of the deposited data

Results flagged for a closer look

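Of 18 differences tested between the Nutlin-3a responses of the 6 genes in cells given different siRNAs, 11 had an adjusted p under 0.05. These were 3 of 6 for siANKRA2 against siControl, where 24.0% of all genes tested passed. For siRFXANK against siControl they were 4 of 6, beside 21.2%, and for siANKRA2 against siRFXANK 4 of 6, beside 32.4%. Against siControl, the log2 response after siANKRA2 was smaller for MDM2 (-1.19), CCNG1 (-0.42) and PPM1D (-0.32). After siRFXANK it was smaller for MDM2 (-0.33), PPM1D (-0.28) and CCNG1 (-0.26) and higher for USP7 (0.32), and centred on ACTR10 the first 3 of these 4 did not pass. After siANKRA2 it was lower than after siRFXANK for MDM2 (-0.86), MDM4 (-0.36), USP7 (-0.28) and CCNG1 (-0.16). The differences against siControl share the siControl samples, and those that involve siRFXANK also compare separately registered samples. The cause of no difference was tested.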

How the results depend on the processing

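No paired analysis was possible because the tables hold no value per library, and for the same reason no sample could be left out in turn. Of the values of the 6 genes, centring on the median gene changed no call among 60, the deposited adjusted p-values none among 36, and the siANKRA2 over siControl tables none among the 6 of the siANKRA2 response difference. Of the list counts printed in this text, centring on the median gene moved the deubiquitinases after siRFXANK in DMSO to 4 higher and 2 lower. It also moved the kinases in the siANKRA2 response difference to 3 higher and 1 lower. List counts not printed elsewhere moved as well. In the siANKRA2 response, ligases went from 3 higher and 7 lower to 3 and 4, and all 39 regulators from 5 and 19 to 6 and 15. A threshold of 0.01 ended 3 of 60 calls of single genes or their absence: MDM4 for siANKRA2 in DMSO, USP7 for siRFXANK in DMSO and CCNG1 for the difference between knockdown responses. Minimum means of 10 and 100 each added 2 calls, MDM2 for siANKRA2 in DMSO and MDM4 for the siANKRA2 response difference. A minimum log2 of 1 left 2 genes called in the siControl response, 1 each in the siANKRA2 and siRFXANK responses, in siANKRA2 over siControl in Nutlin-3a and in the siANKRA2 response difference from siControl, and 0 in the other 5 comparisons, where 3 to 6 genes passed otherwise. Centring on ACTR10 moved all genes by up to 0.49 and changed the count of genes called from 3 to 6 for siANKRA2 in DMSO and from 6 to 2 for siRFXANK in Nutlin-3a. It turned the direction of 14 of 60 values: MDM4 (-0.0470) and RCHY1 (-0.11) in the siANKRA2 response, MDM2 (0.39) and MDM4 (0.32) for siANKRA2 in DMSO, PPM1D (0.14) and CCNG1 (0.0520) for siANKRA2 in Nutlin-3a, MDM4 (-0.32) and CCNG1 (-0.42) for siRFXANK in DMSO, MDM2 (-0.0908), MDM4 (-0.00734) and USP7 (-0.0401) for siRFXANK in Nutlin-3a, RCHY1 (-0.0175) and USP7 (-0.0507) in the siANKRA2 response difference from siControl, and RCHY1 (-0.27) in the difference between knockdowns. Without turning the direction it ended 7 further calls and added 8, given beside the results. Scaled to the deposited means, the mean over the 6 groups became 14662 instead of 16223 for MDM2, 1028 instead of 935 for MDM4, 6100.3 instead of 7260 for PPM1D, 5901 instead of 6480 for CCNG1, 613 instead of 718 for RCHY1 and 6462 instead of 7892 for USP7. The cause of these shifts was not tested.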

Other observations

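Paralogues of the 6 genes were read from a list of 6. In siControl cells Nutlin-3a raised 3 and lowered 2 of them, against 21.9% and 21.2% of all genes on the deposited scale. The counts of paralogues were the same when centred on ACTR10. CCNG2, the relative of CCNG1, rose by a log2 value of 0.70 (SE 0.0705), and was lower after siANKRA2 by -1.53 (SE 0.0792) in DMSO and -1.69 (SE 0.0746) in Nutlin-3a, where CCNG1 was at 0.08 and -0.34. PPM1A and PPM1G, phosphatases of the family of PPM1D, had Nutlin-3a responses of 0.41 (SE 0.0366) and -0.41 (SE 0.0307) in siControl cells. USP47, a relative of USP7, was lower after siANKRA2 by -0.74 (SE 0.0604) in DMSO, where USP7 was higher.

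Among the other regulators of p53, the response of all 7 kinases was higher in siRFXANK than in siControl cells, against 11.6% of all genes. The median log2 difference was 0.51. All 7 were also higher when centred on ACTR10, which raises every gene here, and no share of all genes is given on that scale. A higher response was not always a rise. In siRFXANK cells CHEK1, AURKA and CHEK2 still fell with Nutlin-3a, from 1395 to 533, from 3913 to 1806 and from 697 to 379 normalized counts. For siANKRA2 the kinase response was higher for 3 and lower for 2 of the 7, against 11.4% and 12.5% of all genes. CHEK1 was at 0.97 (SE 0.0746) and CHEK2 at 0.71 (SE 0.102). Centred on ACTR10, the counts were 2 and 2, with no share of all genes given on that scale. Of 4 proteins that bind MDM2, 2 were higher and 2 lower after siANKRA2 in each treatment, or 2 higher and 1 lower when centred on ACTR10. On the deposited scale, 24.3% of all genes were higher and 24.5% lower in DMSO, and 24.6% and 25.5% in Nutlin-3a. The ribosomal protein RPL5 was lower, at -0.87 (SE 0.0481) in DMSO and -1.34 (SE 0.0483) in Nutlin-3a, while RPL11 was higher, at 0.46 (SE 0.0479) and 0.28 (SE 0.0478), and RPL23 was higher, at 0.68 (SE 0.0533) and 0.49 (SE 0.0532).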
